A study of Mus musculus with 20 samples.

Results

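The genes described here take up, carry, store, release and sense iron: 10 genes, found by symbol in each of the deposited count tables, of the 55376 genes those tables list. They were chosen by role, with earlier results of these data known. Tfrc, Trf and Slc11a2 serve uptake, Fth1, Ftl1 and Ncoa4 serve storage, Slc40a1 is the exporter, Hmox1 frees iron from heme, and Ireb2 and Aco1 encode the iron regulatory proteins. The measurement was bulk RNA-seq of polyA RNA, and the cells were sorted as endothelial from sciatic nerves of adult mice. In the Tomato experiment all mice were Plxnd1 wild type and carried Cdh5(PAC)-CreERT2 with the R26-TomatoLSL reporter. It has 5 libraries of uninjured nerve (intact), 5 of the lesion 7 days post injury (7 dpi) and 4 of the lesion at 14 dpi. The Cherry experiment used the reporter Kdr-Cherry and lesions at 7 dpi only, with 3 libraries of control mice (WT) and 3 of Chd5::CreER Plxnd1 fl/fl mice, spelled as in the labels (KO).

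Each of these groups has limits as a model of nerve endothelium. Nerves were pooled before enzymatic dissociation, and the sort kept reporter-positive cells that lacked CD45. The Cre driver acts where Cdh5 is or was active, so the Tomato label marks cells with a history of Cdh5 expression. The KO sort selected for Kdr-Cherry, so cells that kept the floxed allele could enter it. The design text names the tissue a bridge while the condition label names the injury a crush. No label links a library to an animal, so every p-value here rests on library-to-library spread, which may be technical in part.

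Iron reaches cells bound to transferrin (Trf), which is taken up by the transferrin receptor (Tfrc), and Slc11a2 (DMT1) moves the freed iron from endosomes into the cytosol. Surplus iron is stored in ferritin, a shell of heavy (Fth1) and light (Ftl1) chains that Ncoa4 carries to lysosomes for recycling, and ferroportin (Slc40a1) is the exporter. Heme oxygenase 1 (Hmox1) opens heme and frees its iron. In barrier vessels, as at the blood-nerve barrier, iron has to cross the endothelial cell itself. When iron is scarce, IRP1 (Aco1) and IRP2 (Ireb2) bind hairpins in mRNAs called iron responsive elements. Bound in a 3′ UTR, as in Tfrc, they protect the mRNA, and bound in a 5′ UTR, as in ferritin and ferroportin, they block translation. RNA counts therefore can carry the first effect and do not report the second.

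The hairpins of the canonical form are shown because through them the regulatory proteins act on some of the members. GENCODE M21 mRNAs (GRCm38) were searched on the sense strand for a bulged C, 5 bases, the loop CAGTGN and 5 bases able to pair with the first 5, G-T pairs allowed. Capitals mark the bulged C and the 6 loop bases, and each line runs 5′ to 3′ over 29 bases.
Tfrc 3′ UTR, site at chr16:32631219-32631247, plus strand: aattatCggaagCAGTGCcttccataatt
Tfrc 3′ UTR, site at chr16:32631598-32631626, plus strand: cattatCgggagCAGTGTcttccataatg
Tfrc 3′ UTR, site at chr16:32631663-32631691, plus strand: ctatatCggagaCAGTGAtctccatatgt
Tfrc 3′ UTR, site at chr16:32631710-32631738, plus strand: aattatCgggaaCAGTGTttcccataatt
Fth1 5′ UTR, site at chr19:9982732-9982760, plus strand: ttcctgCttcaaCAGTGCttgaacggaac
Ftl1 5′ UTR, site at chr7:45459779-45459807, minus strand: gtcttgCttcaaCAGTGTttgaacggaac
Slc40a1 5′ UTR, site at chr1:45925465-45925493, minus strand: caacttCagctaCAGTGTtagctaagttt
Both ferritin hairpins carry the same upper stem, and Tfrc is the only member with several sites. The site lies in 4 of 5 annotated coding transcripts of Fth1, 1 of 2 of Ftl1 and 1 of 4 of Slc40a1. Each Tfrc site lies in 1 of 3. Counts by gene do not separate transcripts with a site from those without. The pattern was present in 4 of the 10 members and in 294 of 21877 genes with a coding transcript (1.34%), in a 5′ UTR of 31 genes (0.142%) and in a 3′ UTR of 128 (0.585%). No match was found for Trf, Slc11a2, Ncoa4, Hmox1, Ireb2 and Aco1, which says only that these letters are not in their annotated mRNAs. Slc11a2, for one, has a described element of variant form in its 3′ UTR, which this pattern does not cover.

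The libraries held 19057029 to 34181449 counts in the Tomato experiment and 19253137 to 33793402 in the Cherry experiment. Levels are given in CPM, read counts scaled to a common library total, after TMM scaling within an experiment. Calls rest on edgeR's quasi-likelihood test over all genes (Benjamini-Hochberg adjusted p under 0.05), with the batch of the labels (1133 or 1292) in the model, and changes are log2 fold changes ± SE. Gene positions are GRCm38 extents. The 10 endothelial markers summed to 4366 to 11170 CPM in intact, 5783 to 9054 CPM at 7 dpi, 5288 to 7326 CPM at 14 dpi and 8892 to 9870 CPM in the Cherry libraries, and none of the 10 was at 0 throughout a group. The 8 perineurial markers summed to 5028 to 8067 CPM in intact, 555 to 1393 CPM at 7 dpi, 1789 to 4087 CPM at 14 dpi and 210.5 to 315 CPM in the Cherry libraries, where 5 of the 8 stayed below 1 CPM in every library. That list includes Slc2a1, which barrier endothelium also expresses, at 2506 CPM on average in intact and 384 CPM at 7 dpi. The 10 macrophage markers summed to at most 91.2 CPM in every library but 7 dpi replicate 4 (385 CPM) and 14 dpi replicate 3 (1284 CPM). The fibroblast markers summed to 10240 to 17400 CPM in intact, 6328 to 21410 CPM at 7 dpi and 17830 to 36990 CPM at 14 dpi, and the red cell markers to 41.8 to 156.6 CPM in intact and 10.4 to 55.1 CPM at 7 dpi. Schwann markers summed to 557.5 to 1010 CPM in intact, 168 to 258 CPM at 7 dpi and 659 to 2483 CPM at 14 dpi, and other leukocyte markers to at most 10.3 CPM in any library. Y-linked genes were present in all intact and Cherry libraries, in 7 dpi replicate 1 and in 14 dpi replicates 1 and 2, and at or next to 0 in the other injured libraries, so the sex makeup differed between the groups, and the libraries of 7 dpi, like those of 14 dpi, did not all come from the same animals. In bulk samples, fewer cells of a type and less RNA per cell cannot be told apart.

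**Figure D1:**
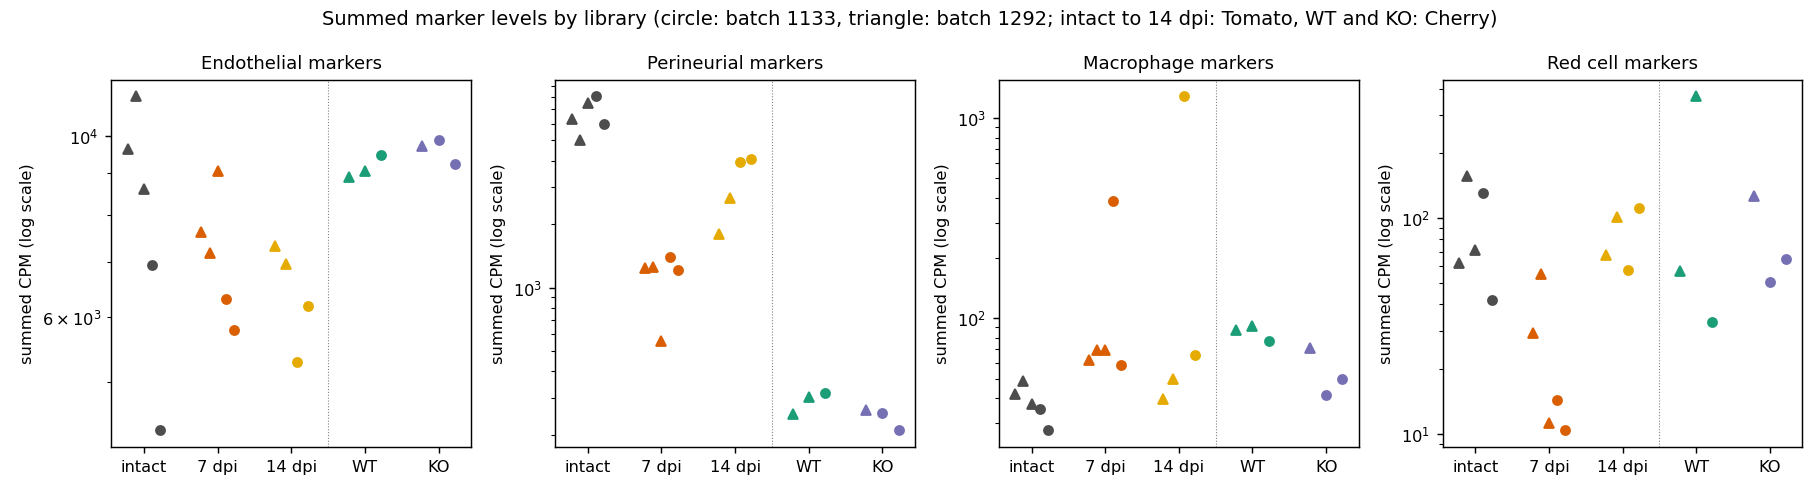
Summed CPM of 4 marker lists in each library on a log axis, by group, with circles for batch 1133 and triangles for batch 1292. Perineurial sums of the 7 dpi libraries (555 to 1393 CPM) lie below all intact libraries (5028 to 8067 CPM), and 7 dpi replicate 4 and 14 dpi replicate 3 stand out in the macrophage panel.

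Per kilobase of exon, which allows genes to be ranked within a library group, ferritin led by a wide margin. In intact libraries Fth1 stood at 2228 ± 436 CPM per kilobase (SD, n = 5) and Ftl1 at 383 ± 54.8. Aco1 (16.2 ± 2.62), Hmox1 (12.6 ± 4.18) and Ncoa4 (10.2 ± 1.74) formed a middle tier whose ranges overlapped from neighbour to neighbour. Slc11a2 (4.91 ± 0.88), Ireb2 (4.402 ± 1.06) and Tfrc (3.61 ± 0.85) followed and overlapped too. Slc40a1 (0.633 ± 0.295) and Trf (0.621 ± 0.184) were lowest and did not differ beyond their spread. At 7 dpi Fth1 was at 1118 ± 123 and Ftl1 at 469 ± 50.2, Hmox1 (38.3 ± 5.93) had moved above Aco1 (16.5 ± 2.09), and Slc40a1 (2.31 ± 0.644) reached the level of Tfrc (2.25 ± 1.03). The exon lengths are those of the deposited tables.

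**Figure D2:**
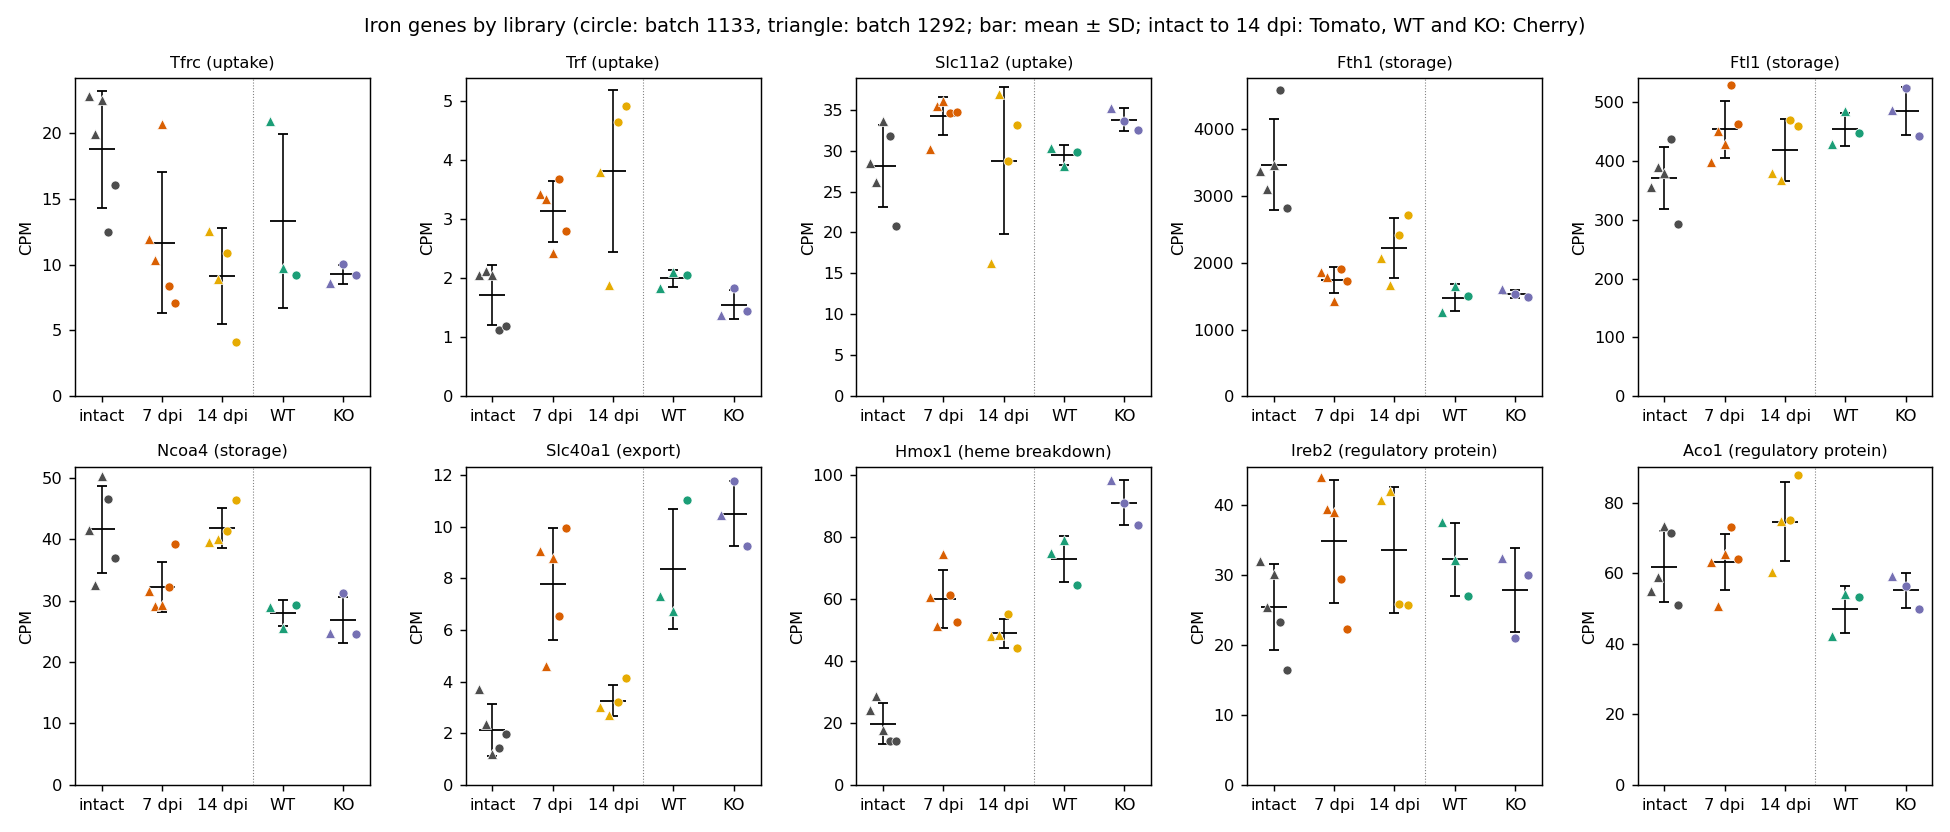
CPM of the 10 iron genes in each library (vertical axis from 0), by group, with the mean and SD as bars, circles for batch 1133 and triangles for batch 1292. The 5 intact libraries of Fth1 (2820 to 4598 CPM) lie above the 5 libraries at 7 dpi (1422 to 1908 CPM), and Hmox1 shows the opposite order (14.0 to 28.8 CPM against 51.4 to 74.6 CPM).

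The comparison of 7 dpi with intact asks which genes change in endothelium of the lesion. The exporter Slc40a1 and the heme-degrading Hmox1 had the largest changes of the 10 members, and both rose. The ferritin heavy chain fell to 0.502 of its intact level, and the light chain did not pass the test. Altogether 4 members rose (Trf, Slc40a1, Hmox1, Ireb2), against 15.7% of the 20409 genes tested that were called higher. Another 3 fell (Tfrc, Fth1, Ncoa4), against 16.3% of genes called lower, and Slc11a2, Ftl1 and Aco1 did not pass. The median change over the 10 members was 0.28, and over all genes tested it was -0.10.

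Among the uptake genes, the receptor and its ligand moved in opposite directions. Tfrc (chr16:32608920-32632794) stood at 22.8, 19.9, 22.6, 12.5 and 16.1 CPM in intact libraries and at 11.96, 10.3, 20.7, 8.39 and 7.07 CPM at 7 dpi. The groups overlapped, because 7 dpi replicate 3 lay among the intact values. The change of Tfrc was -0.71 ± 0.24 (edgeR adjusted p = 0.0325), with -0.84 in batch 1133 and -0.65 in batch 1292. Tfrc was called in neither batch alone (adjusted p = 0.324 and 0.12), nor with the Y-linked genes as a covariate (-0.88, adjusted p = 0.0891) or without the batch term (adjusted p = 0.126). The call was also lost on leaving out any 1 of 7 of the 10 libraries (7 dpi replicates 1, 2, 4 and 5, intact replicates 1, 3 and 5; adjusted p up to 0.0792).

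Trf (chr9:103204001-103230444), which encodes the plasma iron carrier and is made mainly in liver, had few reads here, 33 to 56 per intact library. It was at 2.06, 2.12, 2.06, 1.12 and 1.19 CPM in intact and at 3.43, 3.34, 2.42, 3.68 and 2.79 CPM at 7 dpi, so that every injured library lay above every intact one. Its change was 0.88 ± 0.32 (edgeR adjusted p = 0.0438), and 7 of the 10 single-library omissions ended the call (7 dpi replicates 1, 2, 4 and 5, intact replicates 1, 4 and 5; adjusted p up to 0.121). Trf was also not called in either batch alone (adjusted p = 0.123 and 0.309), with the Y-linked covariate (0.57, adjusted p = 0.373), without the low-count filter (adjusted p = 0.171) or without the macrophage-marked libraries (adjusted p = 0.128). Slc11a2 (chr15:100387898-100423055), the endosomal iron transporter, ranged from 20.7 to 33.6 CPM in intact and from 30.2 to 36.0 CPM at 7 dpi (0.28 ± 0.19, edgeR adjusted p = 0.295).

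The ferritin chains separated. Fth1 (chr19:9980598-9985098), the heavy chain that carries ferroxidase activity, was at 3370, 3102, 3467, 4598 and 2820 CPM in intact and at 1865, 1780, 1422, 1908 and 1733 CPM at 7 dpi. No 7 dpi library reached the lowest intact one. The change was -0.99 ± 0.16 (edgeR adjusted p = 0.000108), with -0.98 in both batches. Fth1 was called in batch 1292 alone (edgeR adjusted p = 0.00142) and not in batch 1133 alone (edgeR adjusted p = 0.152). Ftl1 (chr7:45457944-45459884), the light chain that favours mineral formation, was at 356, 389, 379, 437 and 292 CPM in intact and at 397, 452, 429, 528 and 462 CPM at 7 dpi. Its groups overlapped at 397 to 437 CPM, and the change was 0.29 ± 0.13 (edgeR adjusted p = 0.108). That value passed with library size as the only scaling, with DESeq2's size factors and in DESeq2 itself (lowest adjusted p = 0.0129).

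The 2 chains can be set against each other within a library, which removes scaling between libraries. Per kilobase, Fth1 exceeded Ftl1 by 5.89, 4.95, 5.69, 6.54 and 5.998 times in intact and by 2.92, 2.45, 2.06, 2.24 and 2.33 times at 7 dpi. At 14 dpi the ratio was 3.39, 2.84, 3.20 and 3.68. All 9 injured libraries lay below the 5 intact ones. In the Cherry libraries the ratio was 1.83 to 2.13 in WT and 1.81 to 2.08 in KO. No test was attached to these ratios. Both chains have processed copies in the genome, and how reads with several alignments were counted is not given in the sources used here, so their levels are uncertain to that extent. The 11 rows for Fth1 copies held at most 0.0542% of the Fth1 count in a Tomato library, and the 3 rows for Ftl1 copies at most 0.244% of the Ftl1 count.

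**Figure D3:**
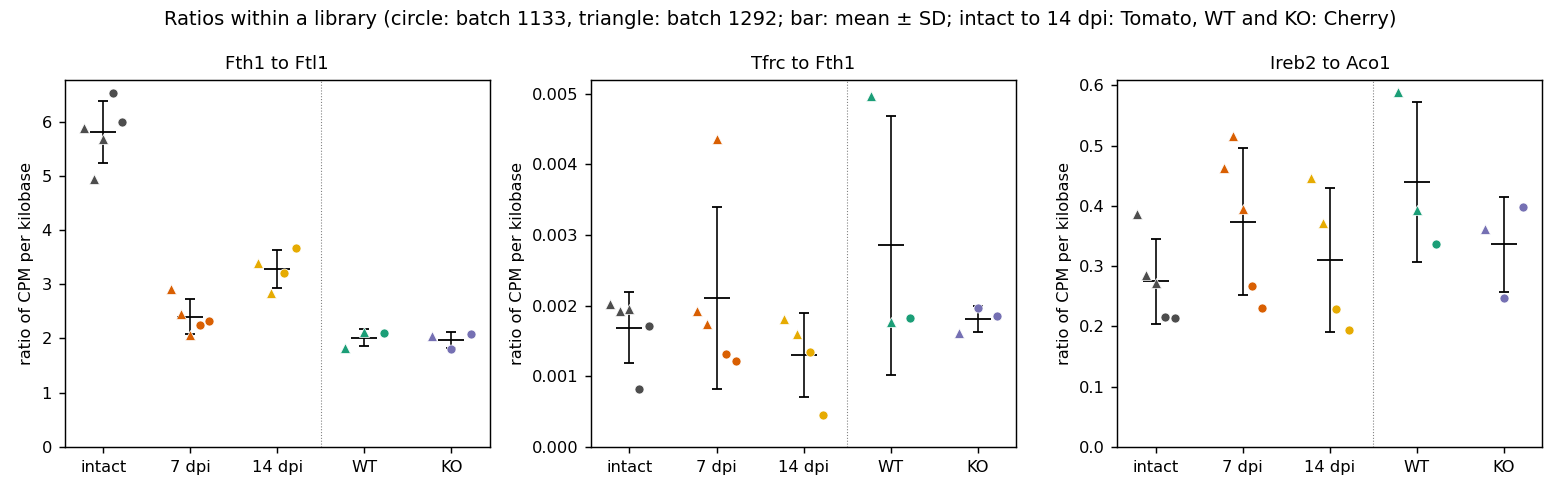
Ratios of CPM per kilobase within each library for Fth1 to Ftl1, Tfrc to Fth1 and Ireb2 to Aco1, by group, with mean and SD as bars, circles for batch 1133 and triangles for batch 1292. The Fth1 to Ftl1 ratio is 4.95 to 6.54 in intact and 2.06 to 2.92 at 7 dpi, while the ratio of Tfrc to Fth1 overlaps between all groups.

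Ncoa4 (chr14:32159865-32179855), the receptor that hands ferritin to autophagy, was at 41.5, 32.6, 50.4, 46.5 and 37.0 CPM in intact and at 31.5, 29.1, 29.2, 32.2 and 39.1 CPM at 7 dpi. The groups overlapped, the change was -0.37 ± 0.13 (edgeR adjusted p = 0.0373), and it was called in neither batch alone. Nor was it called without the low-count filter (edgeR adjusted p = 0.246), without the batch term (0.0663) or with the Y-linked covariate (0.222). Omitting the macrophage-marked libraries ended the call too (edgeR adjusted p = 0.096). Without intact replicate 1 or 3, or without 7 dpi replicate 1, 2 or 3, the call was lost (adjusted p up to 0.0874).

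Slc40a1 (chr1:45908068-45925582), the only known cellular iron exporter, was at 3.71, 2.38, 1.18, 1.43 and 1.97 CPM in intact and at 9.05, 4.62, 8.79, 6.53 and 9.94 CPM at 7 dpi. Every injured library lay above every intact one, at low levels throughout (31 to 101 reads per intact library). Slc40a1 changed by 1.87 ± 0.32 (edgeR adjusted p = 0.000221), a 3.66-fold rise, with 1.97 in batch 1133 and 1.49 in batch 1292. The exporter is abundant in macrophages, and 2 of the 10 macrophage markers rose at 7 dpi. With the libraries highest in those markers left out (7 dpi replicate 4 and 14 dpi replicate 3), the change was 1.92 (edgeR adjusted p = 0.000889). The 7 dpi libraries that were kept still summed to 58.5 to 69.8 CPM of those markers, above the 27.6 to 48.8 CPM of intact. That fit therefore does not remove the difference in macrophage markers, and the part of macrophage RNA in the result was not tested.

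Hmox1 (chr8:75093621-75100589), the inducible enzyme that turns heme into iron, carbon monoxide and biliverdin, was at 24.3, 28.8, 17.6, 14.0 and 14.2 CPM in intact and at 60.7, 51.4, 74.6, 61.2 and 52.5 CPM at 7 dpi. The lowest injured library exceeded the highest intact library by more than the whole intact range. Hmox1 rose by 1.63 ± 0.18 (edgeR adjusted p = 2.31e-06), or 3.10-fold, by 1.97 in batch 1133 and 1.39 in batch 1292. All 5 red cell markers tested fell over the same comparison. At 14 dpi none of them was called against intact, and Hmox1 was still higher than in intact. A link of hemoglobin RNA to Hmox1 was not tested. Without the 2 libraries richest in macrophage markers the change was 1.56 (edgeR adjusted p = 1.04e-05). The 7 dpi libraries that were kept still held more of those markers than any intact library. The part of macrophage RNA in the rise of Hmox1 was not tested.

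The regulatory proteins differed from each other. Ireb2 (IRP2, chr9:54863789-54912530), which cells degrade when iron is plentiful, was at 32.0, 25.4, 30.0, 23.2 and 16.4 CPM in intact and at 44.0, 39.4, 38.9, 29.4 and 22.2 CPM at 7 dpi. Batch 1292 (the first 3 values of each group) stood above batch 1133 in both groups, and the groups overlapped only across batches and within batch 1133. The change of Ireb2 was 0.44 ± 0.13 (edgeR adjusted p = 0.0127), with 0.38 in batch 1133 and 0.48 in batch 1292. The call was lost without a batch term, without a low-count filter, in batch 1133 alone (adjusted p up to 0.627) and without the 2 macrophage-marked libraries (adjusted p = 0.0552). Aco1 (IRP1, chr4:40143081-40198338), which is cytosolic aconitase when it holds its iron-sulfur cluster, ranged from 50.9 to 73.4 CPM in intact and from 50.8 to 73.0 CPM at 7 dpi (0.03 ± 0.14, edgeR adjusted p = 0.923). The ratio of Ireb2 to Aco1 per kilobase was 0.214 to 0.386 in intact and 0.231 to 0.516 at 7 dpi and overlapped.

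The cell makeup of the libraries moved with these changes. All 8 perineurial markers fell at 7 dpi (median log2 fold change -2.84), 7 of 10 mural markers fell, 6 of 10 fibroblast markers rose and 1 fell, and 6 of 10 endothelial markers rose and 2 fell. The marker that fell among the fibroblast genes was Dcn (9687 to 3560 CPM on average), and the endothelial ones were Cldn5, a tight junction gene of barrier vessels (3720 to 744 CPM), and Flt1 (600.5 to 391 CPM). When the mean log2 level of the perineurial markers was added to the model, none of the 10 members was called by edgeR at 7 dpi (2 had an unadjusted p under 0.05, Ireb2 and Tfrc), and 268 of all 20409 genes were. DESeq2 was not run with that covariate, and the share of all genes at that unadjusted p is not given here. That covariate and the injury nearly coincide, and the SE grew: Fth1 was then at -0.43 ± 0.44 (adjusted p = 0.791), Hmox1 at 0.87 ± 0.48 (adjusted p = 0.545) and Slc40a1 at 0.91 ± 0.95 (adjusted p = 0.791). Tfrc moved the other way, to -1.86 ± 0.65 (adjusted p = 0.235). The Cherry WT libraries from 7 dpi were nearly free of Lypd2, Krt19, Perp and Msln. They still held Slc2a1 at 174 to 212 CPM and Itgb4 at 75.9 to 121.5 CPM. Their levels were 1263 to 1657 CPM for Fth1, 64.6 to 78.9 CPM for Hmox1 and 6.76 to 11.04 CPM for Slc40a1. Tfrc was at 9.20 to 20.9 CPM and Trf at 1.83 to 2.10 CPM, both overlapping the intact Tomato range. The Cherry experiment has no intact libraries, and the tables were scaled separately. The part of perineurial RNA in these changes was not tested beyond the covariate.

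**Figure D4:**
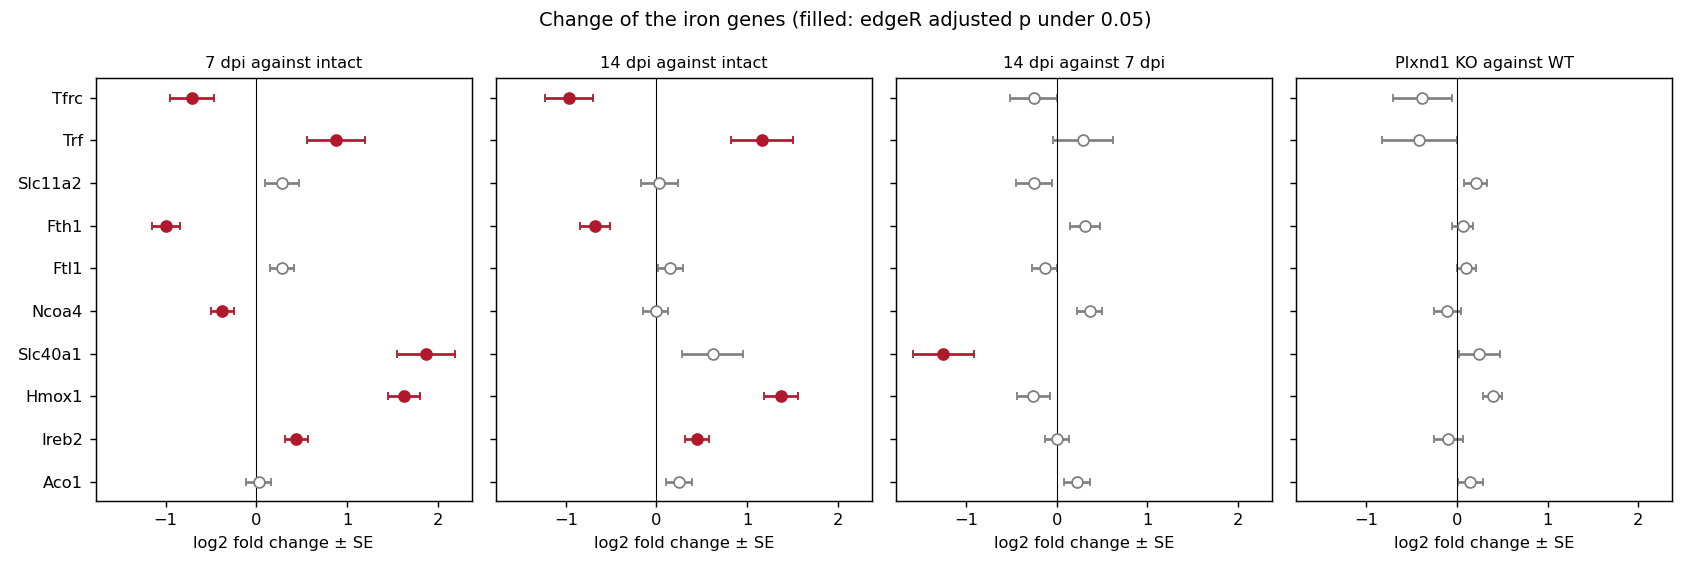
Log2 fold change ± SE of each iron gene in the 4 comparisons, with filled red symbols where the edgeR adjusted p was under 0.05. At 7 dpi Slc40a1 (1.87) and Hmox1 (1.63) lie farthest to the right and Fth1 (-0.99) farthest to the left, and in the KO comparison all symbols are open.

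The comparison of 14 dpi with intact asks what remains later; it uses the same 5 intact libraries, so its values are not independent of those at 7 dpi. Hmox1, Trf and Ireb2 rose, 3 members against 6.86% of all genes called higher, and Tfrc and Fth1 fell, 2 members against 5.09% called lower. The other 5 did not pass. The median over the members was 0.20, and over all genes it was 0.00471. Cell makeup differed from intact here too. Called higher were 7 of 10 fibroblast, 5 of 10 Schwann, 4 of 10 macrophage and 2 of 10 endothelial markers. Called lower were 4 of 8 perineurial, 2 of 10 mural, 2 of 10 endothelial and 1 of 10 Schwann markers. The part of these cells in the changes was not tested beyond the macrophage and perineurial fits.

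Hmox1 was at 48.0, 48.3, 55.2 and 44.1 CPM at 14 dpi, all above the intact libraries. The change was 1.37 ± 0.18 (edgeR adjusted p = 9.76e-05), beside 1.63 at 7 dpi, with 1.77 in batch 1133 and 1.04 in batch 1292. The highest value came from replicate 3, the library with 1284 CPM of macrophage markers. With it and 7 dpi replicate 4 left out the change was 1.25 (adjusted p = 0.00047), and with the perineurial covariate it was 1.04 ± 0.27 (adjusted p = 0.0402). The part of macrophage or perineurial RNA in the result was not tested beyond these fits.

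Fth1 was at 2074, 1674, 2421 and 2719 CPM, below all 5 intact libraries. The change was -0.68 ± 0.17 (edgeR adjusted p = 0.0125), beside -0.99 at 7 dpi. It lost its call in batch 1133 alone, without a low-count filter, with the perineurial covariate (-0.42 ± 0.25, adjusted p = 0.499) and without 14 dpi replicate 2 (adjusted p = 0.0575). Of the 8 perineurial markers 4 were called lower than in intact, and their part in the result was not tested beyond that fit.

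Tfrc was at 12.5, 8.92, 10.9 and 4.09 CPM, which overlapped the intact range at its lower end. It changed by -0.97 ± 0.26 (edgeR adjusted p = 0.0222), a fall to 0.512 of intact, and by -1.47 ± 0.36 with the perineurial covariate (adjusted p = 0.0283). Leaving out intact replicate 5, 14 dpi replicate 2 or 14 dpi replicate 4 ended the call (adjusted p up to 0.0916). Tfrc was called in neither batch alone (edgeR adjusted p = 0.34 in batch 1133 and 0.0595 in batch 1292). It was not called without the batch term either (edgeR adjusted p = 0.0726). Trf was at 3.79, 1.89, 4.63 and 4.92 CPM (1.17 ± 0.34, edgeR adjusted p = 0.0343). Its change was 1.67 in batch 1133 and 0.31 in batch 1292, where replicate 2 (1.89 CPM) lay below the intact libraries of that batch (2.06 to 2.12 CPM) and replicate 1 above them. Trf lost its call in either batch alone, with the Y-linked covariate, without the low-count filter and from the 2 groups alone. It also lost its call without the macrophage-marked libraries and with the perineurial covariate (1.45 ± 0.55, edgeR adjusted p = 0.203). Over these fits the adjusted p was 0.0601 to 0.586. Ireb2 was at 40.7, 41.9, 25.9 and 25.7 CPM (0.45 ± 0.13, edgeR adjusted p = 0.0374), again higher in batch 1292. Only the omission of intact replicate 4 kept its call among the 9 single-library omissions (adjusted p up to 0.102). Ireb2 also lost its call without the low-count filter, without the batch term, from the 2 groups alone and in either batch alone. It was not called with the Y-linked or the perineurial covariate or without the macrophage-marked libraries either (adjusted p up to 0.501 over these fits). The calls of Trf were lost without 14 dpi replicate 1, 3 or 4 or intact replicate 4 or 5 (adjusted p up to 0.116).

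The members that did not pass at 14 dpi included 2 that had moved at 7 dpi. Slc40a1 was at 3.01, 2.72, 3.22 and 4.13 CPM, within or just above the intact range (0.62 ± 0.34, edgeR adjusted p = 0.293). Ncoa4 ranged from 39.5 to 46.5 CPM (-0.0088 ± 0.14, edgeR adjusted p = 0.989). Ftl1 ranged from 367 to 469.8 CPM, Slc11a2 from 16.3 to 36.9 CPM and Aco1 from 60.5 to 87.9 CPM, with changes of 0.15 ± 0.14, 0.03 ± 0.20 and 0.25 ± 0.15 (edgeR adjusted p = 0.597, 0.963 and 0.342).

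The direct comparison of 14 with 7 dpi asks whether the 2 times differ. Slc40a1 was the 1 member called, and it was lower at 14 dpi, against 4.2% of all genes called lower and 5.73% called higher. All 4 libraries at 14 dpi (2.72 to 4.13 CPM) lay below all 5 at 7 dpi (4.62 to 9.94 CPM). The difference was -1.25 ± 0.34 (edgeR adjusted p = 0.0253), with -1.05 in batch 1133 and -1.19 in batch 1292. It was called in neither batch alone, and it lost its call without 14 dpi replicate 1, 2 or 3 or without 7 dpi replicate 1, 3 or 5 (adjusted p up to 0.101). With both macrophage-marked libraries left out it was -1.30 (adjusted p = 0.0993). Schwann markers moved here too, 7 of 10 higher at 14 dpi, and perineurial markers, 7 of 8 higher, and their part in the result was not tested beyond the perineurial covariate (-0.71 ± 0.59, adjusted p = 0.834).

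The 9 other members did not pass between 7 and 14 dpi. Ncoa4 came closest: its 4 libraries at 14 dpi (39.5 to 46.5 CPM) lay above the 5 at 7 dpi (29.1 to 39.1 CPM), by 0.36 ± 0.14 (edgeR adjusted p = 0.117). Fth1 differed by 0.31 ± 0.17 (edgeR adjusted p = 0.294) and Hmox1 by -0.26 ± 0.18 (edgeR adjusted p = 0.475). For Ireb2 the difference was 0.0062 ± 0.13, and for Tfrc, Trf, Slc11a2, Ftl1 and Aco1 it lay between -0.25 and 0.29.

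The KO comparison asks what endothelial loss of Plxnd1, the receptor of class 3 semaphorins, changes in the lesion. Plxnd1 itself was at 349.8, 324 and 343.5 CPM in WT and at 131.4, 160.5 and 160.1 CPM in KO, a change of -1.23 ± 0.10 (edgeR adjusted p = 0.000129). All KO libraries lay below all WT libraries, and some Plxnd1 RNA remained. None of the 10 iron genes was called, against 0.308% of 16227 genes called in either direction (21 higher and 29 lower, or 16 and 36 with library size as the only scaling). At an unadjusted p under 0.05 the edgeR count was 1 of 10, and DESeq2 called 1. Over all 16227 genes DESeq2 called 233, and the share at that unadjusted p is not given here. The median over the members was 0.08, and over all genes it was -0.0096.

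That 1 gene was Hmox1. It was at 74.8, 78.9 and 64.6 CPM in WT and at 98.3, 91.0 and 83.7 CPM in KO, so that every KO library lay above every WT library. The difference was 0.40 ± 0.10 (edgeR adjusted p = 0.193), with 0.43 in batch 1133 and 0.35 in batch 1292. Hmox1 passed in DESeq2 and on the authors' ComBat-Seq counts (lowest adjusted p = 0.0247), a table whose batch correction makes the libraries more alike before the test. Macrophage markers summed to 77.2 to 91.2 CPM in WT and 41.5 to 70.9 CPM in KO, and their part in the result was not tested.

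Fth1 was at 1263, 1657 and 1510 CPM in WT and at 1601, 1529 and 1485 CPM in KO (0.06 ± 0.11, edgeR adjusted p = 0.871). Tfrc was at 20.9, 9.76 and 9.20 CPM in WT and at 8.61, 10.0 and 9.18 CPM in KO (-0.38 ± 0.33, edgeR adjusted p = 0.686), and WT replicate 1 alone stood high. Slc40a1 was at 7.32, 6.76 and 11.04 CPM in WT and at 10.5, 11.8 and 9.25 CPM in KO (0.25 ± 0.23, edgeR adjusted p = 0.705). Slc11a2 was at 28.1 to 30.4 CPM in WT and 32.5 to 35.3 CPM in KO, with no overlap (0.21 ± 0.13, edgeR adjusted p = 0.561). Ftl1, Ncoa4, Ireb2, Aco1 and Trf overlapped between the genotypes, with differences from -0.41 to 0.15. These values leave room for differences of the size of their SE and do not show that the genotypes are alike.

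The Cherry WT and the Tomato 7 dpi libraries come from the same time after injury and differ in reporter, and their tables were scaled separately, so their levels are set side by side without a test. Hmox1 was at 64.6 to 78.9 CPM in Cherry WT and 51.4 to 74.6 CPM in Tomato, and Fth1 at 1263 to 1657 CPM and 1422 to 1908 CPM. Trf was at 1.83 to 2.10 CPM in Cherry WT, below the Tomato 7 dpi range of 2.42 to 3.68 CPM. Ftl1 (428 to 484 CPM against 397 to 528 CPM) and Slc40a1 (6.76 to 11.04 CPM against 4.62 to 9.94 CPM) overlapped.

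The wider iron pathway was read through 8 lists with 68 genes, of which 64 were tested in the Tomato experiment. At 7 dpi 15 of the 64 were called higher and 14 lower, where 15.7% and 16.3% of all genes were, with a median of -0.10 beside -0.10 over all genes. At 14 dpi DESeq2 called 9 of the 64 higher and 8 lower, beside 1905 and 1718 of all 20409 genes. By edgeR 5 were higher and 4 lower, where 6.86% and 5.09% of all genes were. The same shares stand behind the counts of single lists below, each of 4 to 11 genes, from which nothing is read about a list. Perineurial markers moved with these changes too. At an unadjusted p under 0.05, 16 of the 64 were higher and 16 lower at 7 dpi. With the perineurial covariate 3 were higher and 4 lower. The shares of all genes at that p are not given here, so nothing is read from these counts or from those below. Of the genes named below for 7 dpi, Lcn2, Flvcr2 and Epas1 were lower at an unadjusted p under 0.05 in that fit too, Steap1 and Steap2 reversed to higher, and the others did not reach that p. The lists were chosen with earlier results of these data known.

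**Figure D5:**
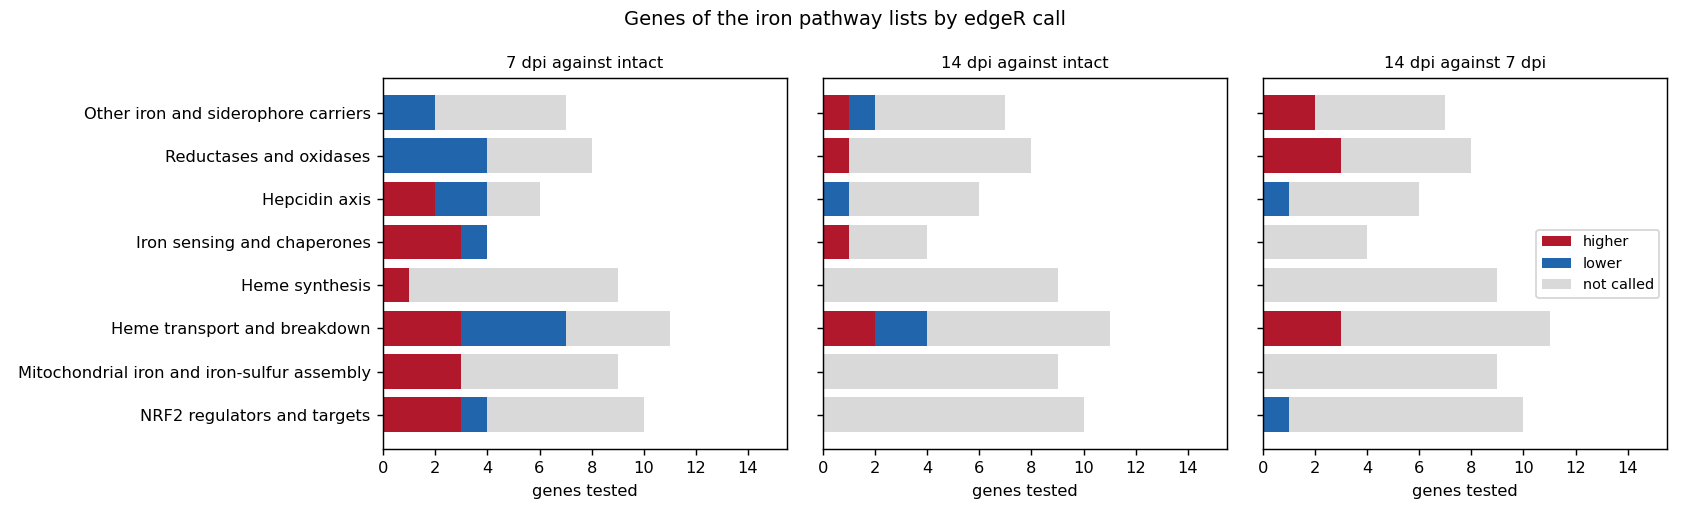
Number of genes tested in each of the 8 iron pathway lists (horizontal axis), split into those called higher, called lower or not called by edgeR in the 3 Tomato comparisons. All 4 genes of the iron sensing and chaperone list are called at 7 dpi, and none of the 9 heme synthesis genes is called at 14 dpi.

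Carriers and surface enzymes are given first. Of 7 other iron and siderophore carriers 2 fell, and none rose by edgeR, by DESeq2 or at an unadjusted p under 0.05. Lcn2 (lipocalin 2, which binds bacterial siderophores) averaged 169 CPM in intact and 7.16 CPM at 7 dpi, a change of -4.58 ± 0.30 (edgeR adjusted p = 1.26e-08), and Slc22a17, described as its receptor, fell by 0.91 ± 0.26. Of 8 reductases and oxidases 4 fell and none rose in edgeR, with 1 higher at an unadjusted p under 0.05 and 1 called higher by DESeq2. Among them Cp (ceruloplasmin, a ferroxidase that works with ferroportin) averaged 397 CPM in intact and 129 CPM at 7 dpi (-1.62 ± 0.23), and the ferrireductases Steap1 and Steap2 fell by 1.28 ± 0.28 and 1.36 ± 0.30. At 14 dpi Steap3, the endosomal reductase of the transferrin cycle, was higher than in intact (1.27 ± 0.23, edgeR adjusted p = 0.0011), and so was the zinc and iron carrier Slc39a8 (0.75 ± 0.19).

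The hepcidin axis was split. Hamp, the gene of hepcidin itself, and Hjv had too few reads to be tested. Bmp6, an endothelial signal that induces hepcidin in liver, fell from 26.8 to 4.51 CPM on average (-2.51 ± 0.24, edgeR adjusted p = 5.25e-07) and was lower at 14 dpi too (-1.79 ± 0.25). Bmp2, another such ligand, rose from 6.25 to 23.4 CPM (1.90 ± 0.25) and was lower again at 14 than at 7 dpi (-1.29 ± 0.26). Hfe rose by 0.56 ± 0.20 and Neo1 fell by 0.96 ± 0.21.

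Of the 4 tested genes for iron sensing and chaperoning 3 rose and 1 fell at 7 dpi, and with the perineurial covariate Epas1 alone had an unadjusted p under 0.05. Pcbp1 and Pcbp2, which deliver iron to ferritin, rose by 1.15 ± 0.29 and 0.54 ± 0.16. Fbxl5, the ubiquitin ligase subunit that removes Ireb2 protein, rose by 0.44 ± 0.12 and was higher at 14 dpi too (0.44 ± 0.12, edgeR adjusted p = 0.0273). Epas1 (HIF-2α) fell by 0.77 ± 0.17.

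Among genes of heme transport and breakdown, 3 of 11 rose and 4 fell at 7 dpi. In heme synthesis, Alas1, the rate-limiting enzyme outside red cells, averaged 96.2 CPM in intact and 93.4 CPM at 7 dpi and did not pass (edgeR adjusted p = 0.866). Hmox2, the constitutive heme oxygenase, rose by 1.13 ± 0.15 and Blvra, which reduces biliverdin, by 0.40 ± 0.13. Hp (haptoglobin, a hemoglobin binder) rose from 0.624 to 10.1 CPM on average. Flvcr2, a transporter of barrier endothelium, fell from 113 to 10.3 CPM (-3.45 ± 0.20) and Slc48a1, which moves heme out of lysosomes, by 1.68 ± 0.17. Both were higher again at 14 than at 7 dpi (1.89 ± 0.20 and 0.86 ± 0.18).

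Hmox1 is a target of the oxidant-sensing factor NRF2, whose part in the rise of Hmox1 was not tested. Of 10 NRF2 regulators and targets 3 rose and 1 fell at 7 dpi, with Txnrd1 (thioredoxin reductase) at 1.11 ± 0.15 and Srxn1 at 0.69 ± 0.18, while Nqo1 changed by -0.54 ± 0.16. Nfe2l2, the gene of NRF2, and its inhibitor Keap1 did not pass (edgeR adjusted p = 0.405 and 0.21). At 14 dpi none of the 10 was called by edgeR, 3 had an unadjusted p under 0.05 (Bach1, Srxn1 and Txnrd1) and DESeq2 called 1. Of 9 genes for mitochondrial iron and iron-sulfur assembly 3 rose at 7 dpi, among them Bola2 (1.17 ± 0.25), and the mitochondrial iron importers Slc25a37 and Slc25a28 did not pass. In the KO comparison none of 60 tested genes of these lists was called by edgeR, and DESeq2 called 1, beside 233 of all 16227 genes. At an unadjusted p under 0.05 in edgeR there were 10 (6 higher and 4 lower). The share of all genes at that p is not given here, so nothing is read from the 10.

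The genes whose pattern came closest to each changed member were sought among the 10306 genes averaging 3 or more in log2 CPM, by the root mean square difference of centred log2 levels over the 14 Tomato libraries. Hmox1 was nearest to Bcl2l11 (0.138), Hspg2 (0.160) and Lhx6 (0.186), differences far under its own spread of 0.777. Fth1 was nearest to Surf1 (0.136), Phyh (0.137) and Dgcr6 (0.146), against its own spread of 0.474. Slc40a1 was nearest to Cda (0.333), Fam49b (0.339) and Srgap1 (0.356), with an own spread of 0.812. The nearest genes to Tfrc (Gm25994, Lncpint and Aff1; 0.308 to 0.322 against 0.650), Trf (Fam171a1, L3hypdh and Rnf122; 0.268 to 0.302 against 0.522), Ncoa4 (Slc35a1, Wdr53 and Trmt2b; 0.123 to 0.128 against 0.243) and Ireb2 (Yme1l1, Smc6 and Trim37; 0.129 to 0.138 against 0.396) complete the list. All points share libraries, depth and cell makeup.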

How the data were processed

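Whole-number counts of reads by gene were deposited, per the file headers, with gene extents and exon length (unit: other) beside them, and 1 further table holds Cherry counts that the authors corrected with ComBat-Seq. The submitters' processing notes name Trimmomatic 0.39, STAR 2.5.3a, featureCounts 1.6.4, Cell Ranger 3.0.2 and build mm10 (GRCm38). The sources used here give no annotation release, strand setting or multi-mapping rule. Of the 10 members, 8 had the same extent in GENCODE M21.

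Counts as deposited were filtered (filterByExpr by group), TMM-scaled and tested with edgeR 4.0.16 in R 4.3.3 (robust quasi-likelihood, batch as a factor), 1 fit for 14 Tomato and 1 for 6 Cherry libraries, p-values adjusted over all genes tested. SE is the absolute log2 fold change over the square root of F. Within-batch and like-pattern values use log2(CPM + 0.5). Alternatives used DESeq2 1.42.0 and other settings; the fit was tested on simulated data. Chi-square divided by its degrees of freedom ran from 15.4 to 121 over 32 replicate pairs, so none was a duplicate. The members and lists were chosen with earlier results of these data known. Each list's first 2 genes could be named, with up to 2 rising and 2 falling called genes of largest fold and average log2 CPM of at least 2. Marker lists were endothelial, Schwann, perineurial, fibroblast, mural, macrophage, other leukocyte, red cell and Y-linked genes. Some genes of the lists are not reported here.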

Additional observations from a re-analysis of the deposited data

Results flagged for a closer look

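The level of Slc11a2 in 7 dpi replicate 1, 30.2 CPM, stood apart from the other 4 libraries of its group (34.6 to 36.0 CPM), with a gap of 0.757 of the group's range. It was 1 such value among 30 pairs of member and Tomato group looked at, and chance gives about 1 in 20. Slc40a1 changed differently from intact at 14 dpi than at 7 dpi: the difference between the times was -1.25 on the log2 scale (edgeR adjusted p = 0.0253, all 4 libraries at 14 dpi below all 5 at 7 dpi).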

How the results depend on the processing

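Macrophage and perineurial alternatives were chosen after seeing the data; for each change below the cause was not tested. No paired analysis was possible because the labels give no shared replicate numbers.

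Of 7 members called at 7 dpi, 4 were called without the low-count filter, without the batch term, with the Y-linked covariate, in batch 1292 alone and without the macrophage-marked libraries, 2 in batch 1133 alone and 0 with the perineurial covariate; leaving out single libraries gave 4 to 7. Of 5 at 14 dpi, 3 were called without the batch term, with the Y-linked covariate, from the 2 groups alone and without the macrophage-marked libraries, 2 without the filter, in batch 1292 alone and with the perineurial covariate, and 1 in batch 1133 alone; single omissions gave 2 to 4. Between the times (1 called), 2 were called from the 2 groups alone, and 0 with the Y-linked covariate, in either batch alone, without the macrophage-marked libraries and with the perineurial covariate; single omissions gave 0 to 1. For KO (0 called by edgeR), DESeq2 and the ComBat-Seq counts gave 1; single omissions gave 0.

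Small differences changed sign. At 7 dpi Aco1 was -0.0249 by library size, -0.0533 in batch 1292 and -0.0145 without the macrophage-marked libraries (single omissions -0.0611 to 0.115), and Ncoa4 was 0.0552 with the perineurial covariate. At 14 dpi Slc11a2 was -0.0368 by library size, -0.0713 with the Y-linked covariate and -0.16 in batch 1292 (single omissions -0.15 to 0.23), and Ftl1 -0.017 in batch 1292. Ncoa4 was 0.0115 without the filter, 0.00794 without the batch term, 0.00397 with the Y-linked covariate, 0.13 in batch 1133, 0.0119 without the macrophage-marked libraries and 0.18 with the perineurial covariate (single omissions -0.0915 to 0.0782). Between the times Tfrc was 0.0017 in batch 1133 and 0.39 with the perineurial covariate, Trf -0.14 in batch 1292 and -0.0465 with that covariate, and Hmox1 0.17 with it. Ireb2 was -0.0072 by library size, -0.0168 by DESeq2's factors, -0.0159 by DESeq2, -0.0523 without the batch term, -0.0333 with the Y-linked covariate, -0.0048 in batch 1292 and -0.19 with the perineurial covariate (single omissions -0.0753 to 0.0686). For KO, Ncoa4 was 0.0594 with the Y-linked covariate, and single omissions spanned -0.84 to 0.0668 for Tfrc, -0.0231 to 0.15 for Fth1, -0.0651 to 0.57 for Slc40a1 and -0.21 to 0.0112 for Ireb2.

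Over all genes, the 6535 calls at 7 dpi became 4136 (Y-linked), 2042 (batch 1133) and 268 (perineurial). The 2439 at 14 dpi became 795 (batch 1133), 1500 (batch 1292) and 778 (perineurial). The 2027 between the times became 1226 (no batch term), 3227 (DESeq2), 366 and 726 (batches 1133 and 1292), 908 (macrophage) and 50 (perineurial). The 50 for KO became 230 (no filter), 5 (no batch term), 9 (Y-linked), 233 (DESeq2) and 550 (ComBat-Seq). Trf (33 to 56 reads per intact library) and Slc40a1 (31 to 101) have the least depth.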
